A study of Homo sapiens with 8 samples.

Results

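At 912 of 27541 CpG sites (3.31% of those tested), the prostate cancer line LNCaP-FGC was less methylated than each of the other 3 lines profiled. These sites were chosen by size from the methylation levels themselves. The level in LNCaP-FGC had to be at least 0.3 below the level in every other line. The level is the beta value, the methylated fraction of the signal at a site, which runs from 0 for unmethylated to 1 for methylated. Because the rule used all 4 arrays, the differences described here are properties of the choice and carry no test.

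LNCaP-FGC, DU145 and PC3 are established prostate cancer lines, and RWPE-1 is an established line of normal prostate epithelium that served as the control. LNCaP-FGC is a fast-growing clone of the LNCaP line, which came from a lymph node metastasis and keeps its androgen receptor and its response to androgen. DU145 came from a brain metastasis and PC3 from a bone metastasis, and neither needs androgen to grow. RWPE-1 was immortalized with papillomavirus sequences, which limits it as a model of normal tissue. The labels name no treatment, genotype or time for any line. Each line had 1 methylation array, a beadchip weighted to gene promoters, and 1 expression array, so no value has a replicate and the error of a repeat array is unknown.

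In vertebrate DNA the cytosine of a CpG pair can carry a methyl group, which is copied to the new strand at replication by DNMT1 and set at new places by DNMT3A and DNMT3B. Promoters rich in CpG are usually unmethylated in normal tissue, while isolated CpG sites are usually methylated. Cancer cells often combine gains of methylation at some promoters with losses elsewhere, and losses are known to affect promoters of genes normally restricted to the germ line. Methylation can be lost by a failure to copy the mark over many divisions or by its active removal through the TET enzymes. An array does not tell these apart. The cells that each line came from were not profiled, so a low level here is not known to be a loss.

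The tables used here give each site by its identifier and pair no site and no expression probe with a gene. The sites are therefore described by their levels, and the gene, position, surrounding sequence and expression at each site were not analysed here. For the same reason the 4 lines were not checked against marker genes.

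LNCaP-FGC was low and the other 3 lines were high, with no single level shared by all of the 912 sites. The median beta was 0.167 in LNCaP-FGC, against 0.868 in DU145, 0.773 in PC3 and 0.794 in RWPE-1. The middle 50% of the sites, between the quartiles, lay from 0.0840 to 0.317 in LNCaP-FGC. In the other lines the quartiles were 0.798 and 0.917 in DU145, 0.635 and 0.862 in PC3, and 0.664 and 0.872 in RWPE-1. The full ranges were 0.00964 to 0.643 in LNCaP-FGC, 0.320 to 0.986 in DU145, 0.324 to 0.980 in PC3 and 0.326 to 0.984 in RWPE-1. The ranges overlap between sites, while at any single site the rule keeps LNCaP-FGC below the rest. The LNCaP-FGC level amounted to a median of 22.1% of the mean level of the other lines, with quartiles of 12.0% and 39.3%.

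**Figure D1:**
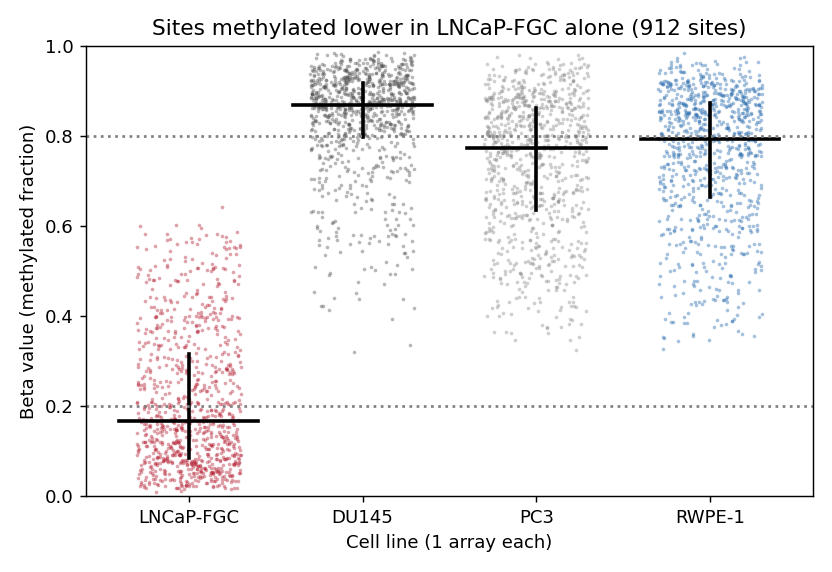
Beta values (vertical axis, methylated fraction) of the 912 sites in each line (horizontal axis, 1 array each), with 1 point per site. Long horizontal bars are medians, vertical bars join the quartiles, and dotted lines mark 0.2 and 0.8. The median was 0.167 in LNCaP-FGC, against 0.868, 0.773 and 0.794 in DU145, PC3 and RWPE-1.

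The widest separation was at site cg17217677, where the beta was 0.0513 in LNCaP-FGC, against 0.969 in DU145, 0.960 in PC3 and 0.957 in RWPE-1. The site was almost fully methylated in the other 3 lines and almost free of methylation in LNCaP-FGC, with a gap of 0.906 to the nearest line. Next came cg00661485, with 0.0824 in LNCaP-FGC against 0.982 in DU145, 0.960 in PC3 and 0.976 in RWPE-1, a gap of 0.878. Such wide gaps were rare. The gap between LNCaP-FGC and the lowest of the other lines had a median of 0.436, with quartiles of 0.360 and 0.556. It lay between 0.3 and 0.4 at 359 sites (39.4%), between 0.4 and 0.5 at 235 (25.8%), between 0.5 and 0.6 at 151 (16.6%), and above that at 94, 59 and 14 sites for gaps from 0.6, 0.7 and 0.8.

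The limit of 0.3 falls on a slope, with no break in the counts around it. A further 621 sites had a gap from 0.2 to 0.3 and 928 a gap from 0.1 to 0.2. The nearest site inside the limit had a gap of 0.30013, with betas of 0.0441 in LNCaP-FGC, 0.778 in DU145, 0.771 in PC3 and 0.344 in RWPE-1. The nearest site outside it had a gap of 0.299993, with betas of 0.129 in LNCaP-FGC, 0.934 in DU145, 0.429 in PC3 and 0.866 in RWPE-1. At the first of these RWPE-1 set the gap, and at the second PC3 did, while the remaining lines were far above LNCaP-FGC in both cases. A further 4 sites had a blank beta in some line and met the rule in the lines that had a value; they are not counted among the 912.

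**Figure D2:**
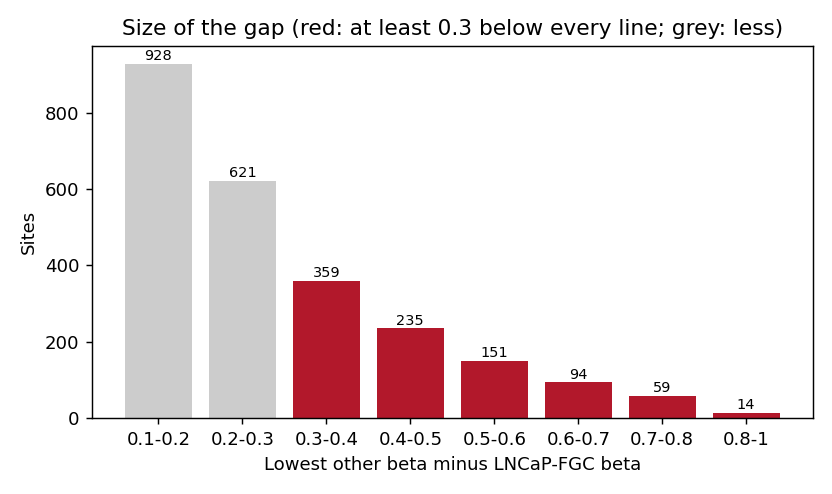
Number of sites (vertical axis) by the gap, the lowest beta among DU145, PC3 and RWPE-1 minus the LNCaP-FGC beta (horizontal axis). Red bars are the 912 sites and grey bars the sites that missed the limit of 0.3. Counts fall steadily, with 928 and 621 sites in the 2 grey bars and 359 in the first red bar.

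LNCaP-FGC lacked methylation at some of the sites and was partly methylated at others. Levels below 0.2 are called unmethylated here and levels above 0.8 methylated. By these limits 520 of the 912 sites (57.0%) were unmethylated in LNCaP-FGC and the other 392 (43.0%) were intermediate. The rule can be met only where each of the other lines has a beta of at least 0.3. That held at 6898 sites, called qualifying sites below. LNCaP-FGC was unmethylated at 10.9% of the qualifying sites and at 61.1% of all sites tested. The higher share at the 912 sites than at the qualifying sites follows at least in part from the rule, which asks for a low LNCaP-FGC level. At 273 sites (29.9%) LNCaP-FGC was below 0.1, and at 851 (93.3%) it was below 0.5. Methylated sites numbered 678 (74.3%) in DU145, 393 (43.1%) in PC3 and 436 (47.8%) in RWPE-1. Of the qualifying sites, 74.8% were methylated in DU145, 51.8% in PC3 and 49.4% in RWPE-1, so the chosen sites were not more often methylated in the other lines than sites that could have been chosen. The lack of methylated sites in LNCaP-FGC and of unmethylated ones in the other lines follows from the rule.

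The sites unmethylated in LNCaP-FGC and those at an intermediate level in it differed in the level of the other lines. At the 520 unmethylated sites the median beta was 0.0935 in LNCaP-FGC, 0.851 in DU145, 0.690 in PC3 and 0.730 in RWPE-1. At the 392 intermediate sites it was 0.351 in LNCaP-FGC, 0.887 in DU145, 0.829 in PC3 and 0.847 in RWPE-1. All 4 lines were higher at the intermediate sites. Part of this is fixed by the rule, since a site at 0.5 in LNCaP-FGC enters only if every other line is at least at 0.8.

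The state of the other lines fell into several combinations. All 3 were methylated at 258 of the 912 sites (28.3%), against 33.1% of the qualifying sites. All 3 were intermediate at 166 (18.2%, against 17.7%). DU145 alone was methylated at 188 (20.6%, against 15.9%), DU145 and RWPE-1 without PC3 at 138 (15.1%, against 12.8%), and DU145 and PC3 without RWPE-1 at 94 (10.3%, against 12.9%). Combinations in which DU145 was intermediate and some other line methylated were few. RWPE-1 alone was methylated at 27 sites (2.96%, against 1.86%), PC3 alone at 28 (3.07%, against 4.12%), and PC3 and RWPE-1 at 13 (1.43%, against 1.57%). A full contrast, unmethylated in LNCaP-FGC and methylated in all 3 other lines, was found at 77 sites (8.44%). Every such site meets the rule, so the rule gathers them among the 912. The 77 were 3.37% of the 2285 qualifying sites methylated in all 3 other lines. Among the 258 of those sites that belong to the 912 they were 29.8%, and the median LNCaP-FGC beta was 0.355. At the 166 sites intermediate in all 3 other lines, LNCaP-FGC was unmethylated at 125 (75.3%), with a median of 0.121.

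LNCaP-FGC was lower alone at 13.2% of the 6898 qualifying sites. The share depended on the level of the lowest other line. It was 4.59% where that level was 0.3 to 0.4, 12.9% at 0.4 to 0.5, 18.7% at 0.5 to 0.6, 16.9% at 0.6 to 0.7, 17.0% at 0.7 to 0.8, 12.9% at 0.8 to 0.9 and 7.75% from 0.9. The low share in the first class follows from the rule, since LNCaP-FGC had to be near 0 there. From 0.5 upward the rule left more room at each step, and the share was lower at the highest levels. Unmethylated sites in LNCaP-FGC, which the rule does not restrict, became rarer at every step, from 25.4% of the sites with a lowest other level of 0.3 to 0.4 to 1.46% of those from 0.9.

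**Figure D3:**
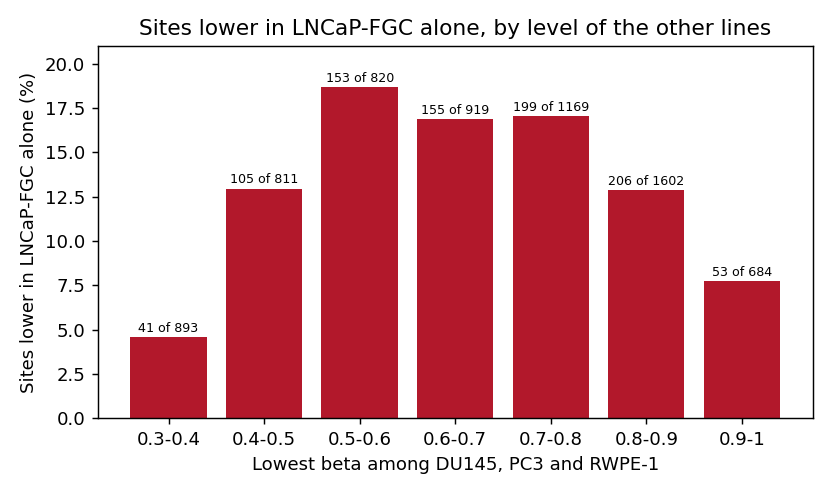
Share of sites lower in LNCaP-FGC alone (vertical axis, percent) by the lowest beta among DU145, PC3 and RWPE-1 (horizontal axis), with counts above the bars. The share was 18.7% (153 of 820) at 0.5 to 0.6 and 7.75% (53 of 684) from 0.9.

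The spread among the other 3 lines had a median close to that at the qualifying sites that were not chosen, with fewer narrow and fewer wide ranges. The range from the lowest to the highest of DU145, PC3 and RWPE-1 had a median of 0.147 at the 912 sites and 0.148 at the 5986 qualifying sites that were not chosen. The range was under 0.1 at 322 of the 912 sites (35.3%), against 39.8% of the 5986, and at least 0.3 at 189 (20.7%), against 27.6%. DU145 was the highest of the 3 at 619 of the 912 sites (67.9%), against 66.5% of all 6898 qualifying sites. PC3 was the lowest, and so set the gap, at 476 (52.2%, against 46.5%), RWPE-1 at 328 (36.0%, against 43.9%) and DU145 at 108 (11.8%, against 9.60%). The DU145 array had the widest scale of the 4. Over 1570 sites above 0.8 in every line DU145 had a median of 0.925, and the other lines had medians of 0.889 (LNCaP-FGC) to 0.904 (PC3). The part of array scale in these orders was not tested.

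Measured from the control, LNCaP-FGC lay below RWPE-1 at all 912 sites by the rule. At most of them, as at most qualifying sites, DU145 and PC3 lay near RWPE-1. Both were within 0.2 of RWPE-1 at 633 sites (69.4%), against 63.3% of the qualifying sites that were not chosen. The part of the rule in this difference was not tested. At 98 sites (10.7%, against 16.6%) DU145 or PC3 was at least 0.3 above RWPE-1, so that LNCaP-FGC lay below the control and another cancer line above it. DU145 was that far above RWPE-1 at 83 sites (9.10%) and PC3 at 36 (3.95%), with 21 in common. Over the whole array the same differences were found at 14.1% of sites for DU145 and 10.1% for PC3. Over the 6898 qualifying sites they were found at 13.3% and 9.15%. The whole array includes sites with RWPE-1 below 0.3, which cannot meet the rule. At the 21 sites the median beta was 0.0725 in LNCaP-FGC, 0.918 in DU145, 0.926 in PC3 and 0.457 in RWPE-1. The choice of these sites by itself puts RWPE-1 above LNCaP-FGC and below DU145 and PC3. LNCaP-FGC did not exceed 0.154 at any of them, and DU145 and PC3 did not fall below 0.711.

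At a few sites another cancer line lay below the control as well. PC3 was at least 0.3 below RWPE-1 at 39 of the 912 sites (4.28%), against 5.42% of the qualifying sites and 4.61% of all sites tested. DU145 was that far below RWPE-1 at 5 (0.548%), against 1.19% of the qualifying sites and 1.83% of all sites tested. At those 39 sites the median beta was 0.0778 in LNCaP-FGC, 0.879 in DU145, 0.492 in PC3 and 0.855 in RWPE-1. The choice of these sites by itself puts PC3 between LNCaP-FGC and RWPE-1. The PC3 median was also below that of DU145.

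The 912 sites were 45.1% of all sites at which LNCaP-FGC was at least 0.3 below the control. That longer list held 2023 sites (7.35% of those tested). At 811 of them (40.1%) LNCaP-FGC was also at least 0.3 below DU145 but less than that below PC3. The reverse held at 98 (4.84%), and at 202 (9.99%) it was that far below neither. PC3 itself was at least 0.3 below RWPE-1 at 709 of the 2023 sites (35.0%), against 4.61% of all sites tested. DU145 was that far below RWPE-1 at 179 (8.85%), against 1.83%. The same RWPE-1 array chose the 2023 sites and entered these counts. It was at or above 0.3 at each of the 2023. Over all sites tested RWPE-1 was below 0.2 at 65.3%, where no line can lie 0.3 below it. The shares of all sites are low at least in part for that reason, and the part of the choice in these differences was not tested. Against DU145, LNCaP-FGC was lower at 4149 sites (15.1% of those tested), of which the 912 were 22.0%. Against PC3 it was lower at 2339 (8.49%), of which the 912 were 39.0%. These lists share the LNCaP-FGC array, and their overlap is given as a count and not as a test.

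With each line taken in turn as the low one, the shares for LNCaP-FGC and RWPE-1 were close and those for DU145 and PC3 were smaller. LNCaP-FGC was lower alone at 13.2% of its 6898 qualifying sites. DU145 was lower alone at 170 of 6081 (2.80%; 0.617% of all sites tested), PC3 at 319 of 6334 (5.04%; 1.16% of all) and RWPE-1 at 932 of 6872 (13.6%; 3.38% of all). The median gap was 0.436 for LNCaP-FGC, 0.442 for DU145, 0.404 for PC3 and 0.443 for RWPE-1. The line set apart was unmethylated at 57.0% of these sites for LNCaP-FGC, 74.7% for DU145, 52.0% for PC3 and 59.9% for RWPE-1. With 4 lines and 1 array each, no test of these shares is possible. On betas forced to a common distribution the share was 12.1% for LNCaP-FGC and 5.33%, 5.36% and 7.44% for DU145, PC3 and RWPE-1, so the nearness of LNCaP-FGC and RWPE-1 changed with the normalization.

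The same comparison was made at sites that were methylated in the other 3 lines, where the line in question is left free to take any level. LNCaP-FGC was still above 0.8 at 68.7% of its 2285 such sites, DU145 at 95.6% of 1642, PC3 at 85.2% of 1842 and RWPE-1 at 73.2% of 2144. LNCaP-FGC was unmethylated at 77 (3.37%), DU145 at 13 (0.792%), PC3 at 17 (0.923%) and RWPE-1 at 93 (4.34%). Most of the remaining LNCaP-FGC sites lay from 0.5 to 0.8, with 99, 142 and 277 sites in the classes from 0.5, 0.6 and 0.7. Between 0 and 0.5 each class of 0.1 held 33 to 48 sites, with 42 in the lowest class. On betas rescaled to common medians of low and high sites, the share still above 0.8 was 71.2% in LNCaP-FGC, 94.9% in DU145, 83.7% in PC3 and 74.0% in RWPE-1. On betas forced to a common distribution it was 74.3%, 81.5%, 85.7% and 79.8% in the same lines. LNCaP-FGC had the lowest share still above 0.8 under each of these scalings. The order for unmethylated sites was less stable. On rescaled betas the unmethylated share was 3.39% in LNCaP-FGC and 4.20% in RWPE-1, as in the deposited order. On betas forced to a common distribution the order was reversed, with 3.06% in LNCaP-FGC and 2.50% in RWPE-1, against 1.01% in DU145 and 1.12% in PC3.

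**Figure D4:**
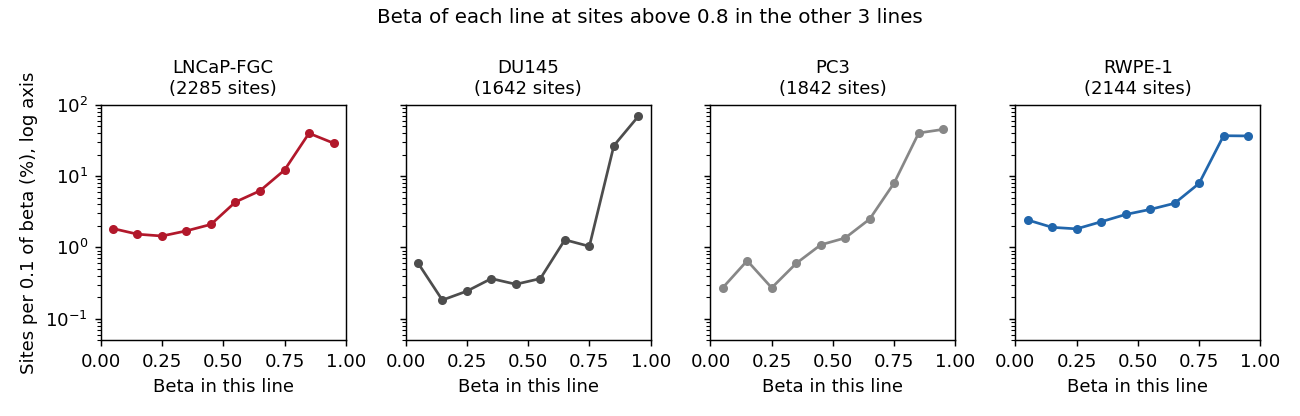
Distribution of the beta in each line (horizontal axis) over sites above 0.8 in the other 3 lines, as the percent of those sites in each class of 0.1 (vertical axis, log scale). On betas as deposited, LNCaP-FGC was below 0.2 at 3.37% of its 2285 sites, against 0.792% in DU145, 0.923% in PC3 and 4.34% in RWPE-1.

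Sites at which LNCaP-FGC was instead at least 0.3 above every other line numbered 1109 (4.03% of those tested). They were more numerous than the 912 lower sites, but a smaller share of the sites that could meet their rule. LNCaP-FGC was lower alone at 13.2% of the 6898 sites with room to be lower, and higher alone at 6.09% of the 18217 sites with room to be higher. These sets of sites are unlike. The 18217 include 10916 sites below 0.1 in every line, and the 6898 include 1570 above 0.8 in every line. The part of this mix of sites in the shares was not tested. The gap to the nearest line had a median of 0.436 at the 912 lower sites and 0.521 at the 1109 higher sites. At the higher sites the median beta was 0.794 in LNCaP-FGC, 0.0503 in DU145, 0.0776 in PC3 and 0.0436 in RWPE-1. LNCaP-FGC had an intermediate level at many sites of both sets, 392 of the 912 lower and 573 of the 1109 higher sites.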

How the data were processed

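DNA methylation was measured in LNCaP-FGC, DU145, PC3 and RWPE-1, with 1 array each; the expression arrays of the same lines were not used here because no table paired sites and probes with genes. Per the labels, bisulfite-converted genomic DNA was hybridised to Illumina HumanMethylation27 beadchips. The authors deposited beta values, the methylated fraction of signal per site; how background was handled and whether arrays were normalized is not given in the sources used here. Signal intensities and detection p-values were not used here, so the signal behind each beta is unknown. The number of arrays limits the precision.

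Columns were matched to lines by name. Of 27578 sites, 37 with a blank beta in some line were left out. Betas were used as deposited. Counts, medians and quartiles were computed with pandas 2.3.3 in Python 3.11.15. No test was run, since each line has 1 array. The rule was tried on simulated betas with known differences. There all lines shared a common level at each site with small noise, and differences were planted at highly methylated sites only. The trial checks the counting and does not measure the error of the rule on these arrays. The 2 members with the largest gap are named. The sites, limits and comparisons were chosen with earlier results of these data known. Alternatives were other size and class limits, quantile normalization, linear rescaling of each array to common medians of low and high sites, the log2(beta / (1 - beta)) scale (betas held 0.01 from either limit), and leaving out each other line. The planned comparison with expression could not be made.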

Additional observations from a re-analysis of the deposited data

Results flagged for a closer look

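At 83 of the 912 sites DU145 was at least 0.3 above RWPE-1 while LNCaP-FGC was at least 0.3 below it, and at 36 sites the same held for PC3. These were 9.10% and 3.95% of the 912 sites, less than the 14.1% and 10.1% of all sites, or the 13.3% and 9.15% of the 6898 sites at or above 0.3 in all 3 other lines, where DU145 and PC3 were that far above RWPE-1. These were picked out because lines set against the same control lay on opposite sides of it. The difference was not tested, as no line had a second array, and the rule itself fixed the direction of LNCaP-FGC. The rule also bears on the shares. Sites with RWPE-1 below 0.3 count among all sites but cannot meet it. Of the qualifying sites whose lowest other level was 0.3 to 0.4, 4.59% met it, against 13.2% of all qualifying sites. The part of the rule in the lower shares was not tested. The 3 lines were all set against the same RWPE-1 array. At the 83 sites the median beta was 0.0784 in LNCaP-FGC and 0.892 in DU145, against 0.503 in RWPE-1. At the 36 sites it was 0.0833 in LNCaP-FGC and 0.886 in PC3, against 0.482 in RWPE-1.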

How the results depend on the processing

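The 912 sites became 870 on quantile-normalized betas, 741 of them among the 912, and 887 on rescaled betas, 885 of them shared. A difference of 2 on the log2(beta / (1 - beta)) scale gave 1319 sites, 874 of them shared, and leaving out DU145 gave 1010. The size limit and the choice of lines moved the count most. Limits of 0.2, 0.4 and 0.5 gave 1533, 553 and 318 sites, and leaving out PC3 or RWPE-1 gave 1723 and 1637. With those 3 limits the share unmethylated in LNCaP-FGC was 50.4%, 67.1% and 77.0%, in place of 57.0%. The share methylated in all 3 other lines was 24.9%, 32.2% and 41.2%, in place of 28.3%. The sites lower in LNCaP-FGC alone made up 53.4%, 41.1% and 34.8% of those lower than in RWPE-1, in place of 45.1%. Class limits of 0.1 and 0.3 gave 29.9% and 72.7% unmethylated in LNCaP-FGC, and limits of 0.7 and 0.9 gave 50.1% and 5.81% methylated in all 3 other lines. Quantile normalization gave 22.8% methylated in all 3 other lines, 33.5% of the sites lower than in RWPE-1 and a median range of 0.158 among the other lines. In alternatives added after seeing the data (the counts for the other lines and the shares still above 0.8), it gave 357 sites lower in DU145 alone in place of 170 and 496 lower in RWPE-1 alone in place of 932. It also gave shares still above 0.8 of 74.3% in LNCaP-FGC, 81.5% in DU145 and 79.8% in RWPE-1, in place of 68.7%, 95.6% and 73.2%, and rescaling gave 71.2% in LNCaP-FGC. Quantile normalization assumes no net difference between lines, and the cause of these shifts was not tested. The median gap stayed at 0.433 and 0.440 under quantile normalization and rescaling. No comparison with expression was run. No paired analysis was possible because each line has 1 array.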
